A study of Mus musculus with 12 samples.

Results

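The genes described here encode the ESCRT complexes, the VPS (vacuolar protein sorting) proteins and the sorting nexins, which together sort membrane proteins in endosomes. They were followed in 3T3-L1 adipocytes, fat-storing cells differentiated in culture from a mouse fibroblast-like line, after knockdown of the zinc finger gene Zfp407. Members were taken by name: rows of the deposited table with a single symbol made of Chmp, Vps or Snx, digits and optional letters, together with Hgs, Stam, Stam2, Tsg101, Snf8 and Pdcd6ip, and with a mean of at least 1 FPKM over the 12 libraries. FPKM is the number of mapped fragments from a transcript scaled by its length and by the library's total. The names matched 71 rows, of which 66 reached that level, and these 66 rows stood for 66 genes among 39248 rows in all. The lowest rows kept were Snx32 with a mean of 2.48 FPKM and Vps37d with 3.02 FPKM. The rows left out were second rows of Snx29 and Snx30 (0.372 and 0.347 FPKM), and Chmp4c, Snx31 and Snx20, each under 0.02 FPKM.

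Of the 12 libraries, 6 came from cells electroporated with an siRNA against Zfp407, 3 with each of 2 siRNAs, and 6 from cells electroporated with a control siRNA. All cells received 0.75 nmol of siRNA 2 days after differentiation. The libraries all came from the same cell line, so p-values measure the spread between libraries of that line. The table numbers the knockdown libraries 1 to 6 without marking the siRNA, so they form 1 arm, and the 2 siRNAs could not be compared.

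Zfp407 itself had 2.13, 1.93, 1.79, 1.65, 1.604 and 1.62 FPKM in knockdown libraries 1 to 6, and 2.73, 3.16, 2.798, 2.92, 2.71 and 2.70 FPKM in control libraries 1 to 6. The arms did not overlap, with means of 1.79 FPKM in knockdown and 2.83 FPKM in control libraries. The log2 fold change of (FPKM + 1) was −0.46 (limma adjusted p = 8.0e-05), a scale that understates the change at this low level. Slc2a4, the gene of the glucose transporter GLUT4, averaged 88.5 ± 8.19 FPKM in knockdown and 102.9 ± 2.77 FPKM in control libraries (SD, n = 6 each; log2 fold change −0.22, limma adjusted p = 0.00853). All 12 adipocyte markers looked up were above 1 FPKM, as were 8 of 10 markers of preadipocytes, whose summed level was 2471 to 3152 FPKM in knockdown and 2933 to 3382 FPKM in control libraries. In the summed level of adipocyte markers the ranges were 18038 to 22795 FPKM in knockdown and 19428 to 23437 FPKM in control libraries, a sum of which Fabp4 is the largest term (9413 FPKM in knockdown and 9588 FPKM in control libraries). Singly, 5 of the 12 adipocyte markers fell and 1 rose, among them Lep (log2 fold change −0.96, limma adjusted p = 1.0e-04), Cfd (−0.32, adjusted p = 0.00113), Adipoq (−0.29, adjusted p = 0.0168) and Cebpa (0.39, adjusted p = 4.5e-04). Over all 14706 rows tested, 24.8% were lower and 11.6% higher. Of the preadipocyte markers, Col1a1 and Col3a1 fell (−0.34 and −0.23, limma adjusted p = 0.0246 and 0.0326). Blood cell and endothelial markers stayed under 0.4 FPKM in sum in every library. The part of these cell mixtures in the results below was not tested, and in RNA from whole cultures a smaller number of cells of a type and less RNA per cell cannot be told apart. Mitochondrial transcripts took 32.8% of summed FPKM in knockdown library 6, and 19.4% to 26.3% in the other 11 libraries.

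As background, ESCRT complexes act in sequence on endosomes. ESCRT-0, ESCRT-I and ESCRT-II gather ubiquitinated membrane proteins, and ESCRT-III subunits, the charged multivesicular body proteins (Chmp), polymerise on the membrane and cut small vesicles into the endosome's interior, sending their cargo to lysosomes. Retromer and many sorting nexins work the other way and return cargo from endosomes to the cell surface or the Golgi. The HOPS, CORVET and related complexes tether endosomes and lysosomes before fusion. In adipocytes the glucose transporter GLUT4, whose mRNA the study followed, cycles through endosomes between the cell surface and its storage vesicles.

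Chmp6 fell by far the most among the 66 genes. Chmp6 (XLOC_004923, chromosome 11, 119913441 to 119919595 on GRCm38, plus strand) encodes the ESCRT-III subunit that binds ESCRT-II and starts polymerisation of the Chmp4 proteins. Its level was 8.47, 9.14, 7.56, 9.35, 7.55 and 6.86 FPKM in knockdown libraries 1 to 6, and 31.5, 26.4, 25.5, 22.8, 27.0 and 32.3 FPKM in control libraries 1 to 6. Every knockdown library lay below every control library, and the highest knockdown library was at 9.35 FPKM against 22.8 FPKM in the lowest control library. Since all 6 knockdown libraries were low, the difference was present with both siRNAs. Chmp6 averaged 8.16 ± 0.988 FPKM in knockdown and 27.6 ± 3.64 FPKM in control libraries (SD, n = 6 each), so that the mean fell by 70.4%. The log2 fold change of (FPKM + 1) was −1.64 (95% interval −1.84 to −1.44; limma adjusted p = 9.4e-08). By the exact permutation test over the 924 divisions of the 12 libraries, two-sided, p was 0.00216, the smallest possible value. Any row whose arms do not overlap reaches this value, and 19.5% of all rows tested had such arms. Chmp6 was also singled out with its fall known. Chmp6 was the only member marked significant in the authors' deposited table, where its log2 fold change was −1.78 and its q-value 2.4e-05. Among the 14706 rows tested it ranked 39 by the size of its fall.

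The other 5 ESCRT-III genes among the members did not pass the test. Chmp2b, Chmp3, Chmp4b, Chmp5 and Chmp7 had log2 fold changes between −0.16 and 0.07, limma adjusted p ran from 0.139 to 0.738, and their 95% intervals together ran from −0.34 to 0.16. Chmp3, the most abundant member, had 153, 129, 159, 162, 154 and 171 FPKM in knockdown libraries 1 to 6, and 172, 144, 186, 164, 178 and 195 FPKM in control libraries 1 to 6. The arms overlapped for Chmp3, with library 2 the lowest of each arm. Chmp3 was called lower when control library 2 was left out (log2 fold change −0.22), and in 2 of 20 alternatives in all, with limma adjusted p from 0.0107 to 0.289. Chmp4b, whose protein forms the main ESCRT-III filament, had 103, 101, 102, 109, 109.6 and 100.5 FPKM in knockdown libraries 1 to 6, and 105.5, 97.8, 103, 95.6, 97.0 and 106.5 FPKM in control libraries 1 to 6. Here too the arms overlapped, and they did for the remaining 3 genes.

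Chmp2b and Chmp3 act late in filament assembly and Chmp5 with the recycling of the machinery by Vps4, while Chmp7 takes part in ESCRT work at the nuclear envelope. Chmp2b had 36.5, 35.8, 35.5, 36.5, 38.6 and 37.1 FPKM in knockdown libraries 1 to 6, and 36.7, 35.1, 35.8, 36.1, 39.9 and 39.7 FPKM in control libraries 1 to 6. It averaged 36.7 ± 1.12 FPKM in knockdown and 37.2 ± 2.07 FPKM in control libraries (SD, n = 6 each). Chmp5 had 62.1, 60.1, 61.5, 69.1, 73.6 and 68.3 FPKM in knockdown libraries 1 to 6, and 66.6, 64.8, 66.0, 67.6, 74.4 and 72.8 FPKM in control libraries 1 to 6. In both arms of Chmp5, libraries 5 and 6 were above libraries 1 to 3. It averaged 65.8 ± 5.36 FPKM in knockdown and 68.7 ± 3.93 FPKM in control libraries (SD, n = 6 each). Chmp7 had 27.1, 27.8, 26.8, 26.2, 27.5 and 24.1 FPKM in knockdown libraries 1 to 6, and 25.4, 24.8, 24.6, 23.7, 26.5 and 26.2 FPKM in control libraries 1 to 6, with knockdown library 6 low in its arm. It averaged 26.6 ± 1.35 FPKM in knockdown and 25.2 ± 1.08 FPKM in control libraries (SD, n = 6 each). After quantile normalization Chmp4b and Chmp7 were called higher (log2 fold changes 0.09 and 0.12), and Chmp7 also without knockdown library 6. Over 20 alternatives their limma adjusted p ran from 0.0489 to 0.608 and from 0.0365 to 0.345. In control libraries Chmp6 was thus about as abundant per length as Chmp7, and in knockdown libraries it was the least abundant of the 6.

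**Figure D1:**
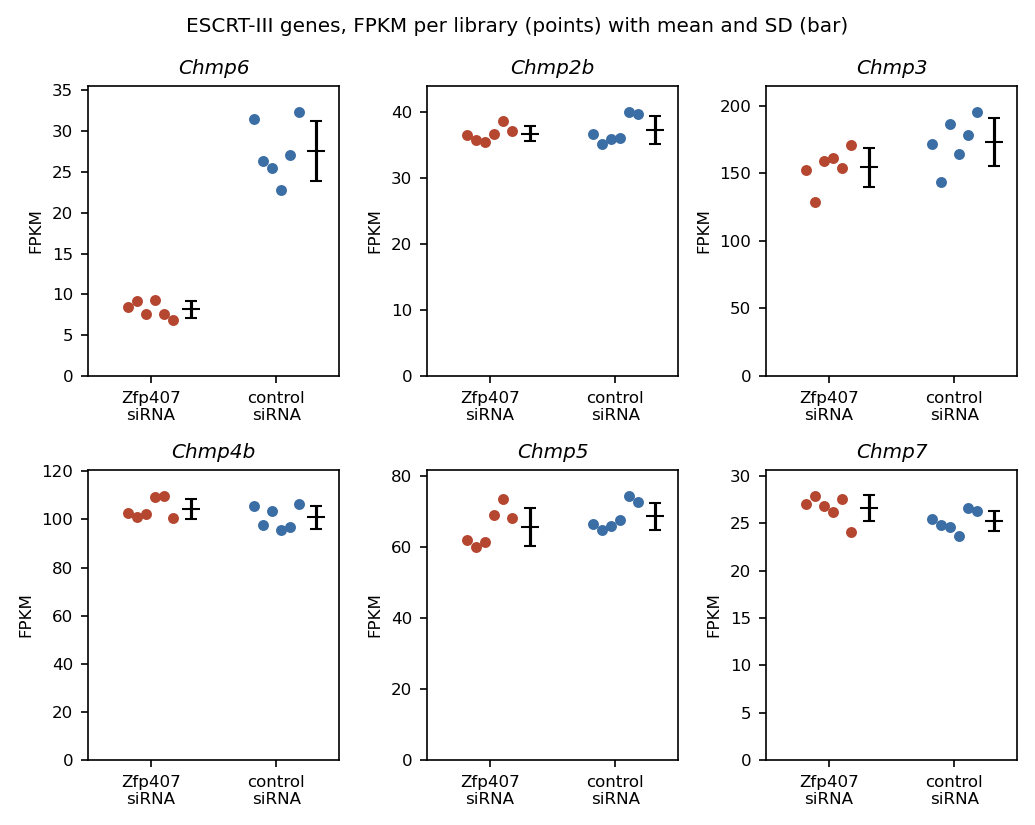
Level of each ESCRT-III gene among the members in FPKM (vertical axis, starting at 0) in the 6 Zfp407 siRNA and 6 control siRNA libraries. Points are libraries 1 to 6 from left to right in each arm, and bars give the mean and SD. Chmp6 lies between 6.86 and 9.35 FPKM in the knockdown arm, below all control libraries, while the arms overlap for the other 5 genes.

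The contrast of Chmp6 with the other 5 ESCRT-III members was also taken inside each library, where a common scaling of the library cancels. The log2 ratio of Chmp6 to Chmp7 was −1.60 ± 0.132 in knockdown and 0.12 ± 0.145 in control libraries (SD, n = 6 each). That of Chmp6 to Chmp3 was −4.09 ± 0.263 in knockdown and −2.61 ± 0.184 in control libraries (SD, n = 6 each). Relative to Chmp2b, Chmp3, Chmp4b, Chmp5 and Chmp7, Chmp6 differed between the arms by −1.62, −1.48, −1.69, −1.58 and −1.71 on the log2 scale. In all 5 ratios the knockdown libraries lay below every control library, and the exact permutation test, two-sided and given singly for each ratio, was 0.00216 each time. The 5 ratios share Chmp6 and are not independent tests, and Chmp6 had been singled out with its fall known. Because the other 5 genes changed little beside Chmp6, the ratios restate its fall and their p-values add no separate support.

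**Figure D2:**
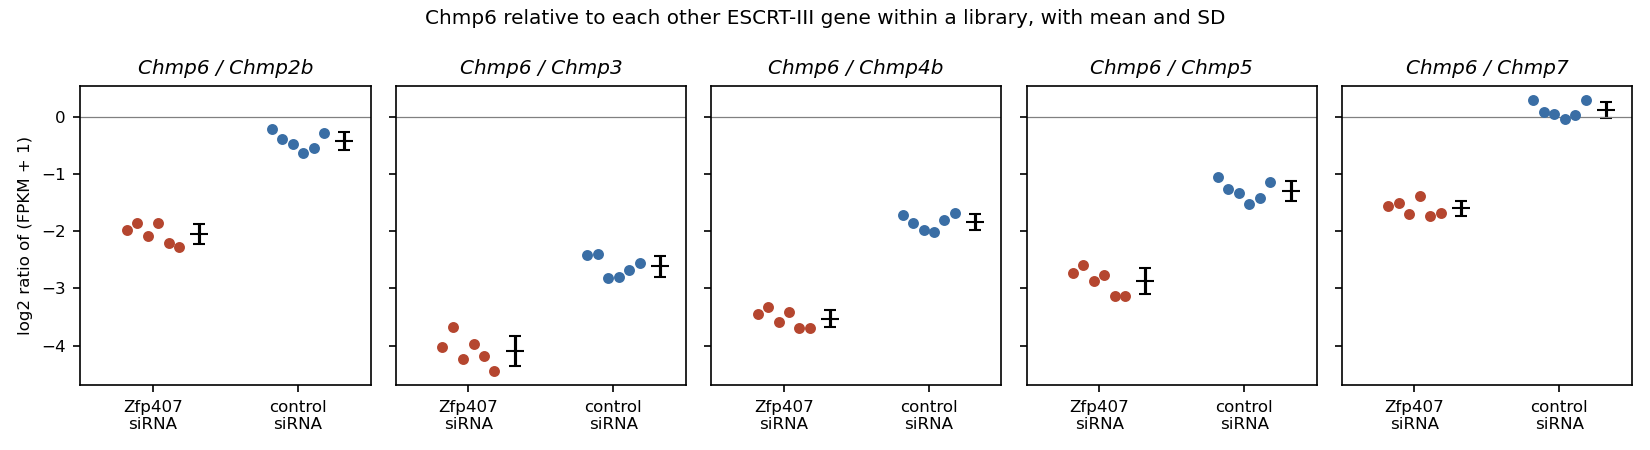
Log2 ratio of (FPKM + 1) of Chmp6 to each of 5 other ESCRT-III genes within a library (vertical axis), for the 6 Zfp407 siRNA and 6 control siRNA libraries, with mean and SD as bars. In all 5 panels every knockdown library is below every control library, by −1.48 to −1.71 on average.

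Around Chmp6, 10 other rows within 250 kb were tested, of which 5 were lower, none higher and 1 past a fold of 1.2, where 24.8%, 11.6% and 5.82% of all rows were. Rptor, the mTORC1 subunit whose gene ends 13.8 kb before the Chmp6 row, averaged 9.43 ± 1.11 FPKM in knockdown and 12.8 ± 2.26 FPKM in control libraries (SD, n = 6 each; log2 fold change −0.39, limma adjusted p = 0.0128). Baiap2, which starts 23.2 kb beyond Chmp6 and encodes a membrane-bending actin regulator, had a log2 fold change of −0.08 (limma adjusted p = 0.416). The row past a fold of 1.2 was one of 2 rows of Aatk, a kinase gene, at 1.25 FPKM in knockdown and 3.05 FPKM in control libraries. These neighbours were chosen by position alone.

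Of the 66 genes, 15 fell and 5 rose in knockdown libraries (limma on log2(FPKM + 1), Benjamini-Hochberg adjusted p under 0.05), or 22.7% and 7.58% of them. Of all 14706 rows tested 36.4% were called, 24.8% as lower and 11.6% as higher, so the share of these genes that was called was near that of the table as a whole. The median log2 fold change was −0.07 over the 66 genes and −0.05 over all rows, and 53 of the 66 genes had a change smaller than 0.2 in size. The arms did not overlap, with the knockdown arm below, in 9 of the 66 genes, against 13.9% of all rows, and with the knockdown arm above in none, against 5.51% of all rows (19.5% of all rows in either direction). Against a minimum fold of 1.2 (limma's treat), Chmp6 and Vps33b passed, 3.03% of the genes, against 5.82% of all rows in either direction and 3.69% as lower.

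Leaving out control library 1 left 3 of the 5 higher calls, and with each library centred on its median 12 genes were lower and 6 higher, against 21.4% and 15.7% of all rows. The value of a single read, taken from the smallest steps of rows under 0.5 FPKM, was also not the same in both arms. It differed by more than 0.01 in 33.3% of 493 such rows, with a percentile 90 of 0.236 on the log2 scale, but in 1 of 98 rows when knockdown libraries were set against each other. Changes smaller than 0.236 cannot be told apart from this difference in how the arms were estimated. Since 0.236 is a percentile and some rows exceeded it, genes just past it, such as Tsg101 at −0.237, are not set apart from it either. Past this size lay 8 of the 15 lower genes (Chmp6, Vps33b, Snx32, Vps13a, Vps13b, Vps13c, Vps41 and Tsg101) and 2 of the 5 higher genes (Snx11 and Vps4a). The share of all rows called past this size was not counted, so these counts cannot be set against the table as a whole. The other 10 called genes lay within this size. They were Stam2, Vps37b, Snx6, Snx12, Snx13, Snx18 and Snx24 (lower) and Hgs, Vps11 and Snx8 (higher). Slc2a4, at −0.22, also lay within it. Where these genes are said to have fallen or risen, only the call is meant.

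**Figure D3:**
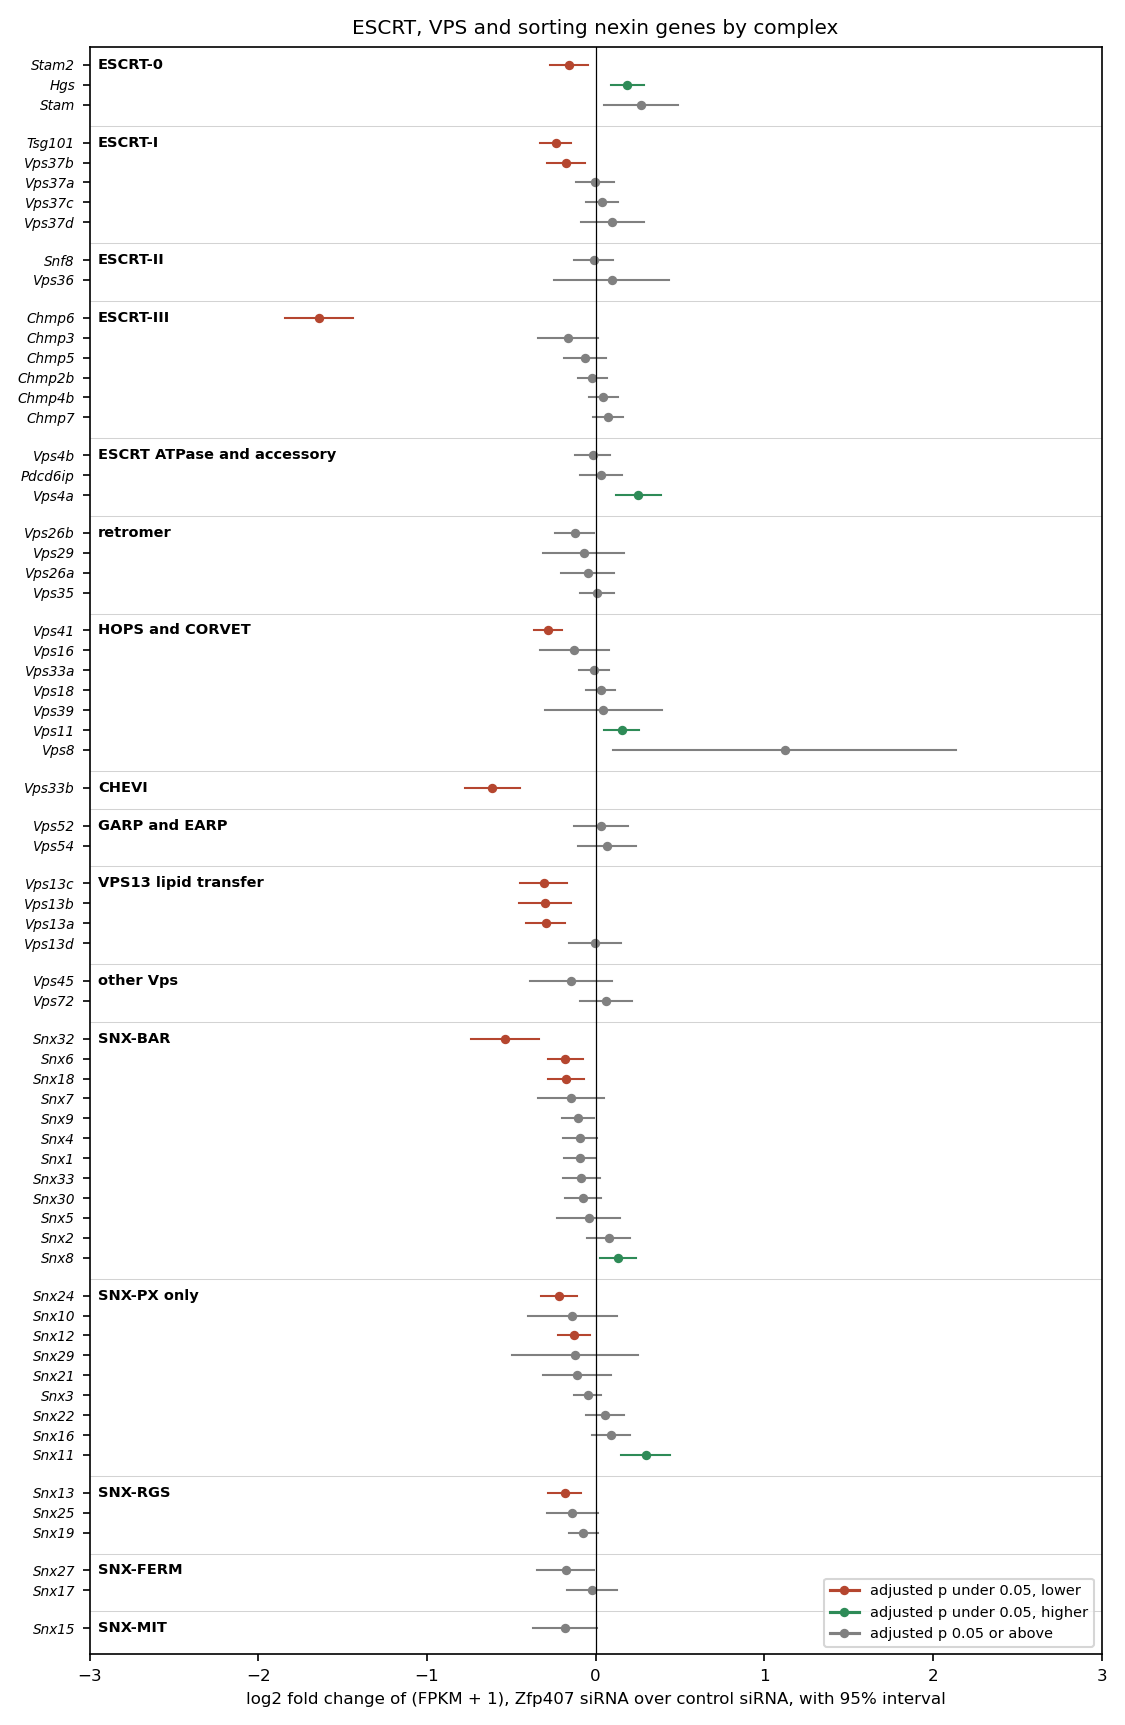
Log2 fold change of (FPKM + 1), Zfp407 siRNA over control siRNA (horizontal axis), with its 95% interval from limma, for the 66 genes grouped by complex (vertical axis). Chmp6 is at −1.64, Vps33b at −0.61 and Snx32 at −0.54, 53 genes lie within 0.2 of 0, and the widest interval is that of Vps8.

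Levels differed widely between the genes. Per length, gene means ran from 1.84 to 154 FPKM in knockdown and from 2.88 to 173 FPKM in control libraries. The same 7 genes were above 100 FPKM in both arms: Chmp3, Chmp4b, the retromer subunits Vps29 and Vps35, and the sorting nexins Snx3, Snx5 and Snx17. The median coefficient of variation between libraries was 7.25% in knockdown and 6.51% in control libraries. It was over 20% for Vps8 and Snx29 in the knockdown arm, and for Vps36, Vps39 and Snx29 in the control arm.

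In ESCRT-0, which binds ubiquitinated cargo first, 1 of the 3 genes rose, 1 fell and 1 did not pass. Hgs, the clathrin-binding scaffold subunit, had 36.0, 37.6, 37.1, 37.6, 35.3 and 34.6 FPKM in knockdown libraries 1 to 6, and 34.8, 31.4, 32.7, 33.1, 29.1 and 30.05 FPKM in control libraries 1 to 6. It rose (log2 fold change 0.19, limma adjusted p = 0.00627), although control library 1 reached into the knockdown range and other rows share its locus. Its partner Stam2 fell to 25.2 ± 1.88 FPKM in knockdown libraries, against 28.2 ± 1.39 FPKM in control libraries (SD, n = 6 each; log2 fold change −0.16, limma adjusted p = 0.0304), a call lost in 9 of 20 alternatives (adjusted p from 0.0121 to 0.0674), centring among them. Stam, the paralog of Stam2, averaged 31.8 ± 3.56 FPKM in knockdown and 26.4 ± 4.47 FPKM in control libraries (SD, n = 6 each; log2 fold change 0.27, limma adjusted p = 0.0562). Control library 2, at 34.9 FPKM, stood apart from the other control libraries of Stam (22.5 to 26.6 FPKM), and without it Stam was called higher, as it also was with centring and without knockdown library 5. In all it was called in 4 of 20 alternatives, with adjusted p from 0.00383 to 0.143. The log2 ratio of Stam to Stam2 was 0.32 ± 0.248 in knockdown and −0.11 ± 0.275 in control libraries (SD, n = 6 each), given as a description because the pair was chosen after its values were seen.

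In ESCRT-I, Tsg101, the subunit that recognises ubiquitin and ESCRT-0, had 31.4, 31.3, 32.5, 29.2, 32.6 and 33.5 FPKM in knockdown libraries 1 to 6, and 36.7, 35.7, 38.9, 37.8, 36.0 and 40.5 FPKM in control libraries 1 to 6. It fell without overlap of the arms (log2 fold change −0.24, limma adjusted p = 9.5e-04). Vps37b, one of 4 interchangeable ESCRT-I subunits, fell to 7.51 ± 0.584 FPKM in knockdown libraries, against 8.62 ± 0.466 FPKM in control libraries (SD, n = 6 each; log2 fold change −0.18, limma adjusted p = 0.0175), and missed the threshold with centring only (adjusted p from 0.0144 to 0.0523 over 20 alternatives). Vps37a, Vps37c and Vps37d did not pass, with log2 fold changes of 0.00, 0.04 and 0.10. Of ESCRT-II, the direct upstream partner of Chmp6, Snf8 had a log2 fold change of −0.01 and Vps36 of 0.10 (limma adjusted p = 0.873 and 0.666). The third ESCRT-II gene, Vps25, shared a row with its neighbour Ramp2, and that row cannot stand for either gene. It averaged 107.8 ± 10.1 FPKM in knockdown and 143 ± 8.74 FPKM in control libraries (SD, n = 6 each; log2 fold change −0.41, limma adjusted p = 4.5e-04).

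Vps4a and Vps4b encode the ATPases that take ESCRT-III filaments apart. Vps4a had 42.8, 39.6, 45.3, 41.5, 45.6 and 38.2 FPKM in knockdown libraries 1 to 6, and 35.7, 35.1, 32.1, 32.6, 40.3 and 35.6 FPKM in control libraries 1 to 6. It rose (log2 fold change 0.25, limma adjusted p = 0.00636), and control library 5 was the only control library within the knockdown range. Vps4b averaged 42.8 ± 2.91 FPKM in knockdown and 43.2 ± 1.87 FPKM in control libraries (SD, n = 6 each; limma adjusted p = 0.801). The Vps4a row shares its locus with Cog8, a Golgi gene, so that the authors' estimation had to divide reads there. Pdcd6ip, the gene of ALIX, which recruits ESCRT-III independently of ESCRT-II, had a log2 fold change of 0.03 (limma adjusted p = 0.704).

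None of the 4 retromer genes passed the test. Vps35, the scaffold, averaged 118.7 ± 7.47 FPKM in knockdown and 118.0 ± 5.05 FPKM in control libraries (SD, n = 6 each), and Vps29 141 ± 15.5 FPKM in knockdown and 149 ± 22.9 FPKM in control libraries (SD, n = 6 each). Of the alternative cargo-side subunits, Vps26a averaged 29.5 ± 3.37 FPKM in knockdown and 30.4 ± 1.95 FPKM in control libraries, and Vps26b 15.8 ± 1.45 FPKM in knockdown and 17.3 ± 0.515 FPKM in control libraries (SD, n = 6 each). The 95% intervals of the 4 log2 fold changes together ran from −0.31 to 0.17. Retromer's sorting nexins had log2 fold changes of −0.09 for Snx1, 0.08 for Snx2, −0.05 for Snx3, −0.04 for Snx5, −0.18 for Snx6 and −0.18 for Snx27, which links retromer to cargo such as GLUT4. Only Snx6 passed among these 6, with 39.5 ± 2.33 FPKM in knockdown and 44.8 ± 2.40 FPKM in control libraries (SD, n = 6 each; limma adjusted p = 0.0110).

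Vps33b was the second gene past a fold of 1.2. It encodes an SM protein (a Sec1/Munc18 relative that guides membrane fusion) that pairs with the VIPAS39 protein. Its level was 4.71, 3.81, 3.499, 3.86, 3.78 and 3.21 FPKM in knockdown libraries 1 to 6, and 6.82, 5.95, 5.38, 6.88, 6.75 and 6.29 FPKM in control libraries 1 to 6. The arms did not overlap, so the lower level was again present with both siRNAs. Vps33b had a log2 fold change of −0.61 with an SE of 0.08 (limma adjusted p = 6.9e-05, treat adjusted p = 0.00786). In the authors' deposited table its log2 fold change was −0.78, with a p-value of 0.183 and a q-value of 0.99999. That fold change is of FPKM without the added 1, so the 2 sizes are not on the same scale. Its paralog Vps33a, the SM protein of HOPS and CORVET, averaged 24.9 ± 1.25 FPKM in knockdown and 25.0 ± 1.16 FPKM in control libraries (SD, n = 6 each; limma adjusted p = 0.876). Vipar, the older symbol of the partner gene Vipas39, averaged 17.1 ± 0.787 FPKM in knockdown and 16.6 ± 0.706 FPKM in control libraries (SD, n = 6 each; limma adjusted p = 0.517) in a row the authors marked as a failed estimate, and it was looked at after the value of Vps33b was seen.

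Among the 7 HOPS and CORVET genes, Vps41 fell and Vps11 rose. Vps41, which ties HOPS to late endosomes, had 31.9, 32.4, 29.5, 31.8, 32.4 and 28.6 FPKM in knockdown libraries 1 to 6, and 38.6, 37.0, 38.0, 37.4, 39.3 and 37.7 FPKM in control libraries 1 to 6. The highest knockdown library was at 32.4 FPKM and the lowest control library at 37.0 FPKM, with a log2 fold change of −0.28 (limma adjusted p = 1.2e-04). Vps11, a core subunit of both complexes, averaged 20.2 ± 1.42 FPKM in knockdown and 18.01 ± 0.831 FPKM in control libraries (SD, n = 6 each; log2 fold change 0.15, limma adjusted p = 0.0253). The call of Vps11 was lost without knockdown library 5, without control library 1, 5 or 6, and with no filter on low rows (adjusted p from 0.00868 to 0.0568 over 20 alternatives). Vps16, Vps18 and Vps39 had log2 fold changes of −0.13, 0.03 and 0.05 and did not pass.

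Vps8, a subunit of CORVET, was the most variable gene. It had 115, 106.5, 62.8, 17.5, 14.1 and 43.3 FPKM in knockdown libraries 1 to 6, and 22.6, 20.1, 19.1, 21.5, 19.6 and 19.0 FPKM in control libraries 1 to 6. Knockdown libraries 1, 2, 3 and 6 were above all control libraries, and knockdown libraries 4 and 5 below all of them. The log2 fold change was 1.12 with a 95% interval of 0.11 to 2.14, and it did not pass (limma adjusted p = 0.0800). Without knockdown library 4 or 5 it did (log2 fold changes 1.39 and 1.44), with adjusted p from 0.0155 to 0.204 over 20 alternatives. In the authors' deposited table the arm values of Vps8 were 57.4 FPKM for the knockdown arm and 47.4 FPKM for the control arm, and no single control library reached that control value.

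The VPS13 genes encode large bridge-like proteins that carry lipids between membranes. Vps13a had 7.24, 7.38, 6.55, 7.68, 6.55 and 6.97 FPKM in knockdown libraries 1 to 6, and 9.23, 9.10, 8.60, 9.79, 8.83 and 7.84 FPKM in control libraries 1 to 6. Vps13c had 6.88, 7.41, 6.35, 7.49, 6.55 and 6.22 FPKM in knockdown libraries 1 to 6, and 8.53, 9.57, 7.77, 9.96, 8.14 and 8.19 FPKM in control libraries 1 to 6. For both genes the arms were apart, the highest knockdown library lying just under the lowest control library. Vps13b overlapped in knockdown library 4 and averaged 4.38 ± 0.544 FPKM in knockdown and 5.60 ± 0.472 FPKM in control libraries (SD, n = 6 each). The log2 fold changes were −0.30, −0.30 and −0.31 for Vps13a, Vps13b and Vps13c (limma adjusted p = 0.00103, 0.00582 and 0.00276). Vps13d, the fourth gene, averaged 21.9 ± 1.88 FPKM in knockdown and 22.0 ± 2.18 FPKM in control libraries (SD, n = 6 each; log2 fold change −0.01, 95% interval −0.16 to 0.15). The log2 ratio of Vps13c to Vps13d was −1.55 ± 0.143 in knockdown and −1.25 ± 0.169 in control libraries (SD, n = 6 each), a pair chosen after its values were seen. None of the VPS13 genes passed against a fold of 1.2.

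**Figure D4:**
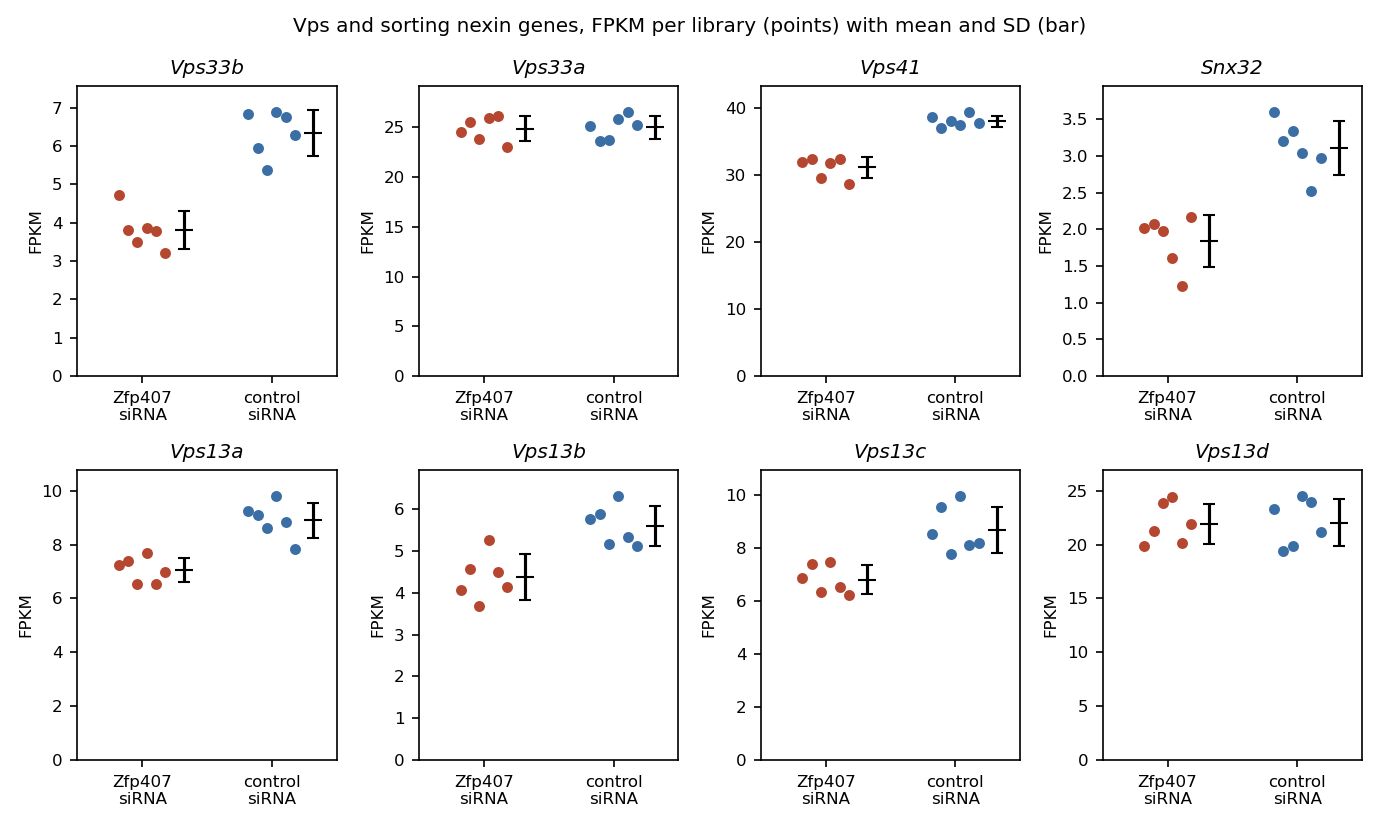
Levels in FPKM (vertical axes, starting at 0) of Vps33b, its paralog Vps33a, Vps41, Snx32 and the 4 VPS13 genes in the 6 Zfp407 siRNA and 6 control siRNA libraries. Points are libraries 1 to 6 from left to right in each arm, and bars give the mean and SD. The arms do not overlap for Vps33b, Vps41, Snx32, Vps13a and Vps13c, overlap in 1 knockdown library for Vps13b, and overlap broadly for Vps33a and Vps13d.

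The remaining Vps genes did not pass. Vps52 and Vps54, of the GARP complex that tethers endosome-derived vesicles at the Golgi, had log2 fold changes of 0.03 and 0.07, Vps45, the SM protein of early endosomes, of −0.15, and Vps72, named for a yeast sorting gene but part of a chromatin-remodelling complex in mammals, of 0.06.

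Of the 27 sorting nexins, proteins with a PX domain that binds phosphoinositides on endosomes, 6 were lower and 2 higher, 22.2% and 7.41% against 24.8% and 11.6% of all rows. The median log2 fold change was −0.11. Snx32, a BAR-domain relative of Snx6, had 2.01, 2.07, 1.98, 1.604, 1.23 and 2.16 FPKM in knockdown libraries 1 to 6, and 3.59, 3.20, 3.33, 3.04, 2.52 and 2.97 FPKM in control libraries 1 to 6. The arms did not overlap, and the log2 fold change was −0.54 (limma adjusted p = 8.3e-04, treat adjusted p = 0.0888). With a pseudocount of 0.1 in place of 1 its log2 fold change was −0.74, and it passed against a fold of 1.2. The authors marked the Snx32 row as a failed estimate, and in the GENCODE M21 annotation the gene 1700020D05Rik overlaps its locus.

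Among the other sorting nexins called lower, Snx24, Snx13 and Snx6 had the largest falls. Snx24 averaged 6.57 ± 0.455 FPKM in knockdown and 7.80 ± 0.489 FPKM in control libraries (SD, n = 6 each; log2 fold change −0.22, limma adjusted p = 0.00481). Snx13, which joins PX and RGS domains, averaged 12.7 ± 0.621 FPKM in knockdown and 14.6 ± 0.914 FPKM in control libraries (SD, n = 6 each; log2 fold change −0.18), and its arms did not overlap. Snx18 (log2 fold change −0.17) and Snx12 (−0.13) were also lower, the call of Snx12 being lost in 9 of 20 alternatives (adjusted p from 0.0303 to 0.103). Snx11 rose the most, with 10.8, 9.52, 10.7, 9.34, 9.62 and 10.3 FPKM in knockdown libraries 1 to 6, and 6.76, 7.995, 7.71, 8.74, 7.57 and 9.35 FPKM in control libraries 1 to 6. Control library 6 at 9.35 FPKM lay just above knockdown library 4 at 9.34 FPKM, and the log2 fold change was 0.30 (limma adjusted p = 0.00416). The call of Snx8 (log2 fold change 0.13, limma adjusted p = 0.0497) sat at the threshold and was lost in 13 of 20 alternatives. Snx17, the cargo adaptor of retriever, had a log2 fold change of −0.02 (limma adjusted p = 0.824). The sorting nexins not named above did not pass, with log2 fold changes from −0.18 (Snx15) to 0.09 (Snx16).

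Among listed partners of these complexes that carry other names, 25 rows of 24 genes were tested, 9 lower, 2 higher and 14 not past the test, with a median log2 fold change of −0.13. Over all rows 24.8% were lower and 11.6% higher, with a median of −0.05. None passed against a fold of 1.2. The largest fall among them, chosen after the values were seen, was that of the ESCRT-I gene Fam125a (now Mvb12a), with 24.8 ± 2.52 FPKM in knockdown and 31.04 ± 1.59 FPKM in control libraries (SD, n = 6 each; log2 fold change −0.32, limma adjusted p = 0.00157). The partner 2400003C14Rik, listed with ESCRT-III, was not part of the contrast with Chmp6. It averaged 37.6 FPKM in knockdown and 35.4 FPKM in control libraries (log2 fold change 0.08, limma adjusted p = 0.0542).

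Rows that name several genes cannot be assigned to a single member. Besides that of Vps25, the row of Chmp2a and Ube2m averaged 219.8 ± 4.66 FPKM in knockdown and 244.7 ± 10.5 FPKM in control libraries (SD, n = 6 each; log2 fold change −0.15, limma adjusted p = 0.00608). The row of Gemin4, Glod4 and Vps53 had a log2 fold change of −0.39, that of Tonsl and Vps28 of −0.12 and that of Gm20537, Snx14 and Syncrip of −0.02.

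The genes called lower, called higher and not called were also set side by side by locus length and control level, as a description. The 15 lower genes had a median locus of 50.6 kb and a median control level of 14.6 FPKM, the 5 higher genes 25.5 kb and 18.01 FPKM, and the 46 others 37.6 kb and 31.6 FPKM. The Chmp6 locus, of 6.16 kb, was the shortest of the 15. Of the 66 genes, 21 shared their locus with another row of the table. Among these were the lower genes Vps13a, Vps13b and Snx12 and the higher genes Hgs, Vps4a and Snx11. The authors marked 3 of the 66 (Vps39, Snx32 and Snx25) as failed estimates.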

How the data were processed

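The authors deposited 1 table of FPKM values for 12 libraries, with their own log2 fold change, p-value and q-value per row, per the file headers. Bowtie2 2.0.0.7, Cufflinks 2.0.2 and SAMtools 0.1.18.0 are listed in the submitters' processing notes beside TopHat2 2.0.5, with no order or settings. For the genome build and gene models, the sources used here say nothing. All 66 members overlapped the gene of the same name in GENCODE M21 (GRCm38), so coordinates are on that build, counted from 1. Read depth is unknown, since FPKM holds no totals, and summed FPKM ran from 2772929 to 3748488 per library.

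Rows with a mean of at least 1 FPKM (14706 of 39248) went into limma 3.58.1 (R 4.3.3; eBayes with trend, 2 groups) on the log2(FPKM + 1) scale, two-sided, with Benjamini-Hochberg adjustment over all of them. Fold changes on this scale understate changes of low genes. The fit was tested on simulated data. The simulation held no difference common to a whole arm, so it cannot speak for changes under 0.236. Single genes and ratios were tested by exact permutation. The members and gene lists were chosen with earlier results of these data known. All libraries of ESCRT-III genes and of members past a fold of 1.2 are given. So are those of other members whose size or spread stands out, chosen after their values were seen. Of sorting nexins, the largest falls and rises are named. Alternatives changed the pseudocount, filter, scaling, trend, rows and libraries. Sequences of Zfp407 siRNAs were not used here.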

Additional observations from a re-analysis of the deposited data

Results flagged for a closer look

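Within an arm, 4 of 132 sets of 6 libraries had a library whose gap to its nearest neighbour took more than 0.625 of the set's range (Dixon's ratio), where chance gives about 1 in 20. For Stam, control library 2 was at 34.9 FPKM and the other control libraries at 22.5 to 26.6 FPKM (ratio 0.672). For Vps37a, knockdown library 6 was at 17.3 FPKM and the other knockdown libraries at 13.9 to 14.96 FPKM (ratio 0.696). For Snx33, knockdown library 4 was at 7.71 FPKM and the others at 6.05 to 6.66 FPKM (ratio 0.635). For Snx30, control library 6 was at 14.1 FPKM and the others at 11.9 to 12.2 FPKM (ratio 0.841).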

How the results depend on the processing

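Chmp6 was called lower under all 20 alternatives run, with log2 fold changes from −1.74 (pseudocount of 0.1) to −1.59 (without control library 6). The differences of the 5 Chmp6 ratios ran from −1.75 (to Chmp7) to −1.40 (to Chmp3) without a single library. The count of lower genes (15) ran from 12 with centring to 21 without knockdown library 4, and was 2 against a minimum fold of 1.2. That count of 2, Chmp6 and Vps33b, became 3 with Snx32 at a pseudocount of 0.1 and in the fit blocked by library number. The count of higher genes (5) was 3 with no filter, 8 after quantile normalization, 0 against a minimum fold of 1.2, 2 among the 45 genes alone at their locus (chosen after seeing the data), and 3 to 5 without a single library. A filter at 5 FPKM left 62 genes. Whether equal library numbers in the 2 arms pair the libraries was not settled. Deviations from the arm means correlated weakly, at −0.05 to 0.15, between same-numbered libraries. Still, 3 of 6 knockdown libraries correlated best with the control library of their own number. A replicate block by this number, chosen after seeing the data, called 19 genes lower and 5 higher, against 26.0% and 12.8% of all rows. It added Stam, Chmp3, Snx1, Snx9 and Snx27 and lost Snx8 (adjusted p = 0.0860). The unknown depth and the arm-wide term limit what can be said of changes under 0.236 on the log2 scale, and of those just past it.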
